A study of Mus musculus with 12 samples.

Results

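The genes described are 8 genes of mouse chromosome 17 that lie within 20 Mb of Dusp1: Thbs2, Pim1, Srrm2, Gfer, Dnah8, Baiap3, Cacna1h and Fam120b. They were chosen from measured values. All 8 are among the 100 genes with the smallest p of the genotype difference averaged over untreated and LPS-treated mice, where their ranks ran from 9 (Thbs2) to 95 (Fam120b), so every difference between genotypes given here for them is a description and carries no test. They are 8 of 12393 measured genes and hold 14 of 22626 probe sets that could be tested, and 399 measured genes other than Dusp1 lie in the same 20 Mb window. Spleen RNA was measured on Affymetrix MOE430A 2.0 arrays, 1 array for 1 mouse, in 12 mice of 4 groups of 3. The groups are labelled DUSP1+/+ control, DUSP1-/- control, DUSP1+/+ LPS and DUSP1-/- LPS. Control mice were untreated, and LPS mice were studied 6 h after an intraperitoneal dose of 10 µg of E. coli lipopolysaccharide per g of body weight. The labels give no strain, age or sex, nothing on how the allele was made or how often it was crossed, and nothing on whether the genotypes were littermates. The series is about the part of DUSP1 in the LPS response, and the question put to these genes is which of their genotype differences were already there without LPS.

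LPS, a component of the outer membrane of Gram-negative bacteria, activates Toll-like receptor signalling through NF-kB and MAP kinases. Dusp1 encodes a phosphatase that switches those MAP kinases off again, and is itself induced by LPS. In mice made by gene targeting, alleles that sit near the targeted gene are inherited with it, so genes of the same chromosome stretch can differ between null and wild-type mice without being controlled by the deleted gene. The 8 genes have no common function. Pim1 encodes a survival kinase that cytokines induce through JAK and STAT proteins, and Thbs2 a secreted matrix glycoprotein that restrains vessel growth. Srrm2 encodes a large scaffold protein of nuclear speckles and the spliceosome. Fam120b encodes a coactivator of the nuclear receptor PPAR gamma. Gfer encodes the sulfhydryl oxidase of the mitochondrial disulfide relay, Baiap3 a Munc13-related protein of vesicle trafficking, Cacna1h the pore of a T-type calcium channel, and Dnah8 a dynein heavy chain of the sperm flagellum.

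Several arrays stood apart from their group. The Dusp1 signal did not set the genotypes apart as labelled: the single Dusp1 probe set (1448830_at) read 479, 1354 and 627 in DUSP1+/+ controls, 677, 1528 and 1443 in DUSP1-/- controls, 2248, 2142 and 2116 in DUSP1+/+ LPS arrays and 4963, 2948 and 4996 in DUSP1-/- LPS arrays. Its mean was higher in DUSP1-/- arrays by 0.63 ± 0.41 in controls and 0.95 ± 0.41 after LPS, neither past the threshold (limma adjusted p = 1 and 0.528). Whether this probe set lies in the targeted part of the gene is not given in the sources used here, so the genotypes below are those of the labels and have no check from Dusp1. Of the markers of other tissues, the mean log2 signal of 10 exocrine pancreas genes was 12.83 in DUSP1+/+ control 1, 11.49 in DUSP1-/- control 1 and 8.52 in DUSP1-/- control 3, against 4.10 to 5.04 in the other arrays. Lung marker transcripts were high in DUSP1-/- arrays: Sftpc, a surfactant protein, read 966 and 895 in DUSP1-/- controls 2 and 3 and 735 and 311 in DUSP1-/- LPS arrays 1 and 3, against 15 to 94 elsewhere. The mean of 9 lung markers was 6.51 to 7.22 in these 4 arrays and 4.96 to 5.96 in the others. Of the sex-linked genes, Xist of the X chromosome was 35 and 47 in DUSP1+/+ controls 2 and 3 and 1101 or more in each other array. Eif2s3y of the Y chromosome read 316 and 53 in the same arrays and 7 to 10 in the others. Liver markers, 11 in all, ran from a mean of 4.28 in DUSP1-/- control 1 to 9.33 in DUSP1-/- control 2. This mean includes Trh, read in place of the listed liver gene Trf, at 13 to 23 in every array. Erythroid markers, 9 in all, had a mean of 10.33 in DUSP1-/- control 1, beside 6.55 and 5.90 in DUSP1-/- controls 2 and 3, 9.33 in DUSP1+/+ control 2 and 6.57 to 7.78 in the rest. In DUSP1-/- control 1 the members Srrm2, Dnah8 and Fam120b each read lower than in the other DUSP1-/- controls, and the part of these markers in that was not tested. Spleen lymphocyte genes were present in every array, with Cd79a between 730 and 4499 and Cd3d between 364 and 1844. In whole spleen, fewer cells of a type and less RNA per cell cannot be told apart.

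The sequences just before the starts of Pim1 and Thbs2 are shown because these are the members whose signal moved with LPS at both of their probe sets in the DUSP1-/- mice. Each is the 250 bases before the RefSeq gene start on GRCm38.p6, 5′ to 3′ in the direction of the gene; Pim1 is chr17:29490535-29490784 on the plus strand and Thbs2 is chr17:14694263-14694512 on the minus strand. Capitals mark the only match found to the motifs searched.
Pim1: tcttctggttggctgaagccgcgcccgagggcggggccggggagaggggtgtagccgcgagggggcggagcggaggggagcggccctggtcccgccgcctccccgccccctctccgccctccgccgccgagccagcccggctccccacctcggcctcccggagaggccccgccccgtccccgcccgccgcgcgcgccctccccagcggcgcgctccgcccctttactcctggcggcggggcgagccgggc
Thbs2: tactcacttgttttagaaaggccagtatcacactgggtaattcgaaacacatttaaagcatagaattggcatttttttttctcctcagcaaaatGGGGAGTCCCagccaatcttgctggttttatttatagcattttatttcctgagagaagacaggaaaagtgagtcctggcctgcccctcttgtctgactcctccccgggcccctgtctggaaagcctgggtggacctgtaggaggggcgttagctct
Motifs searched on both strands were the STAT site TTCNNNGAA, the AP-1 site TGANTCA, the cyclic AMP response element TGACGTCA and the NF-kB site kappa-B. Thbs2 held 1 kappa-B match, read on both strands at 156 to 147 bases before the start, and Pim1 held none of the 4. Among 32851 windows of the same length, 7.25% held a kappa-B match, 7.02% a STAT, 6.75% an AP-1 and 1.55% a CRE match. The Pim1 window was 82.4% G or C and the Thbs2 window 46.8%, beside a median of 52.4% over all windows.

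Signals below are the deposited intensities of single probe sets, on a linear scale and without unit, in array order 1, 2, 3. Differences are on the log2 scale, and ± is limma's standard error with 3 mice a group. LPS responses were tested with limma over all 22626 probe sets, and their adjusted p (Benjamini-Hochberg) counts as past the threshold under 0.05. These tests share no difference of means with the averaged genotype difference. Each member's residual spread also entered its p in that ranking, though, so the p of its LPS response can be too small. Of the 8 brightest sets 5 have a residual SD under 0.34, the median of all probe sets. This is near an even split, and nothing is read from it.

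**Figure D1:**
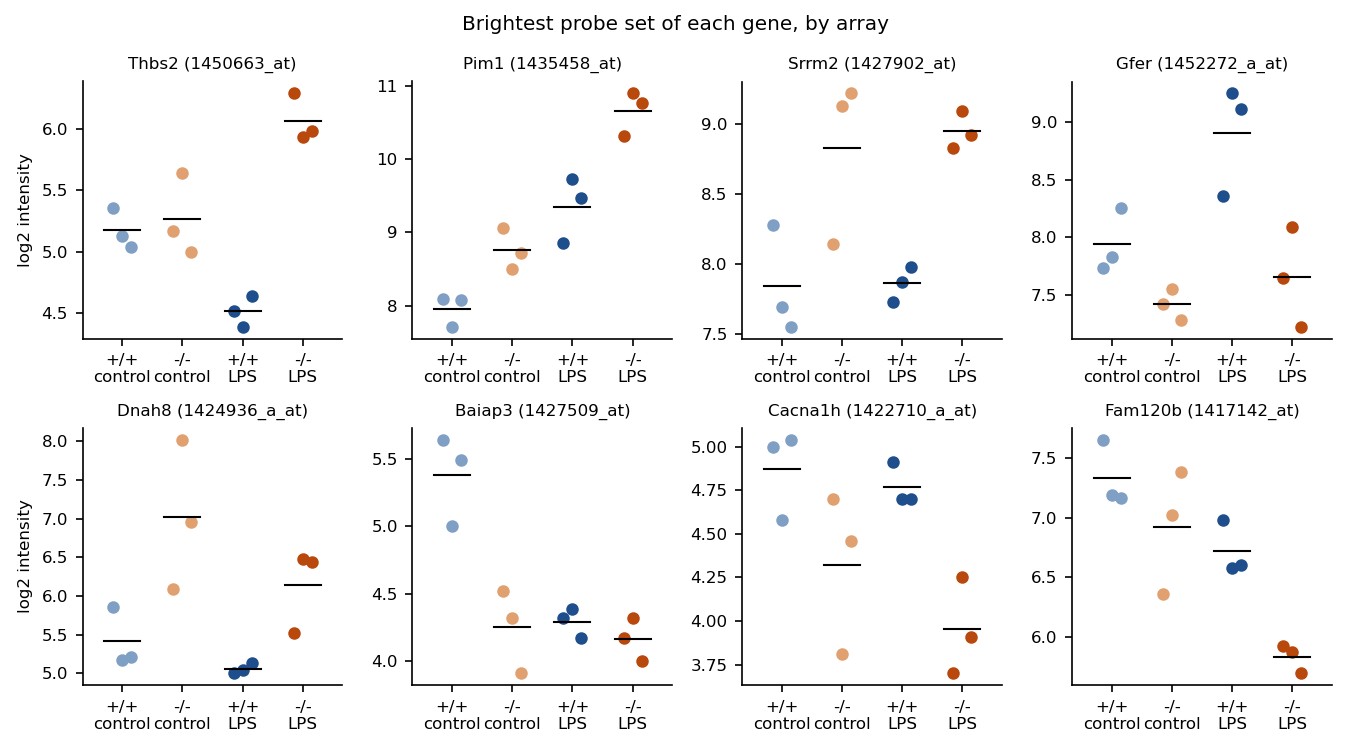
Log2 intensity (y axis) of the brightest probe set of each of the 8 genes in the 3 arrays of each group (x axis), with each dot 1 mouse, the bar the group mean, and +/+ and -/- the labelled genotype. Pim1 rose with LPS in both genotypes, while the Thbs2 dots of the -/- LPS group lie above and those of the +/+ LPS group below their controls.

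Pim1 was the member with the firmest LPS response, and it was higher in arrays labelled DUSP1-/- before and after LPS. The brighter probe set (1435458_at) read 272, 210 and 268 in DUSP1+/+ controls and 535, 361 and 421 in DUSP1-/- controls. After LPS it read 460, 848 and 707 in DUSP1+/+ and 1267, 1913 and 1747 in DUSP1-/- arrays. Neither treatment had overlapping genotypes: all 3 DUSP1-/- arrays lay above all 3 DUSP1+/+ arrays in controls and after LPS. The genotype difference was 0.80 ± 0.26 in controls and 1.31 ± 0.26 after LPS. Pim1 rose with LPS by 1.39 ± 0.26 in DUSP1+/+ mice (limma adjusted p = 0.0102), by 1.90 ± 0.26 in DUSP1-/- mice (limma adjusted p = 0.00117) and by 1.65 ± 0.18 averaged (limma adjusted p = 0.000174). These responses differed by 0.51 ± 0.37 (limma adjusted p = 1), with a 95% interval of -0.30 to 1.32. Without DUSP1+/+ LPS array 3 the limma adjusted p in DUSP1+/+ mice was 0.0553, and without DUSP1+/+ controls 2 and 3 it was 0.13. Without the 4 DUSP1-/- arrays with lung transcripts, which leaves 1 control and 1 LPS array of that genotype, the DUSP1-/- value was 1.84 (limma adjusted p = 0.111).

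The second Pim1 set (1423006_at) was dimmer and varied more. It read 32, 38 and 71 in DUSP1+/+ controls, 203, 102 and 124 in DUSP1-/- controls, 99, 525 and 151 in DUSP1+/+ LPS arrays and 514, 912 and 613 in DUSP1-/- LPS arrays. The genotypes did not overlap in controls and overlapped after LPS, where DUSP1+/+ LPS array 2 (525) lay above DUSP1-/- LPS array 1 (514). It rose by 2.17 ± 0.56 in DUSP1+/+ and 2.27 ± 0.56 in DUSP1-/- mice (limma adjusted p = 0.0434 and 0.0229). The call in DUSP1+/+ mice held in 10 of 24 other settings and that in DUSP1-/- mice in 16 of 24; leaving out any of DUSP1+/+ controls 1 and 2, DUSP1-/- control 3, DUSP1+/+ LPS 2 and 3 and the DUSP1-/- LPS arrays ended the first, with adjusted p from 0.0515 to 0.14. The second was lost without DUSP1-/- control 2 or 3 or any 1 of the 3 DUSP1-/- LPS arrays, with adjusted p from 0.0528 to 0.0736. The sets had a Pearson r of 0.96 over the 12 arrays, which share their groups.

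Thbs2 was near the same level in both control groups and parted after LPS. The brighter set (1450663_at) read 41, 35 and 33 in DUSP1+/+ controls and 36, 50 and 32 in DUSP1-/- controls. After LPS it read 23, 21 and 25 in DUSP1+/+ and 78, 61 and 63 in DUSP1-/- arrays. Every DUSP1-/- LPS array lay above, and every DUSP1+/+ LPS array below, all 6 controls. The genotype difference was 0.09 ± 0.19 in controls and 1.54 ± 0.19 after LPS. Thbs2 rose by 0.79 ± 0.19 in DUSP1-/- mice (limma adjusted p = 0.0232); its difference in DUSP1+/+ mice was -0.66 ± 0.19 (limma adjusted p = 0.0765). The test of the difference between these responses gave 1.45 ± 0.28 (limma adjusted p = 0.265).

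The dimmer Thbs2 set (1422571_at) ran the same way. It read 27, 33 and 38 in DUSP1+/+ controls, 29, 29 and 28 in DUSP1-/- controls, 21, 17 and 29 in DUSP1+/+ LPS arrays and 110, 89 and 83 in DUSP1-/- LPS arrays. Its values in the DUSP1-/- LPS arrays stood above those of all the other arrays. It rose by 1.70 ± 0.22 in DUSP1-/- mice (limma adjusted p = 0.000772), was -0.57 ± 0.22 in DUSP1+/+ mice (adjusted p = 0.166) and rose by 0.57 ± 0.15 averaged (adjusted p = 0.0237). The responses differed by 2.27 ± 0.30 (limma adjusted p = 0.164). Without the 4 DUSP1-/- arrays with lung transcripts the DUSP1-/- response was 1.62 (adjusted p = 0.125) at this set and 0.76 (adjusted p = 0.232) at the brighter one. The brighter set's DUSP1-/- call was also lost without DUSP1-/- control 1 (adjusted p = 0.0553) or 3 (0.0772) and without DUSP1-/- LPS 1 (0.104) or 3 (0.0578). It was lost as well without the 3 arrays with pancreas transcripts (value 0.42), which leaves 1 DUSP1-/- control, array 2. The dimmer set's averaged call was lost without DUSP1+/+ control 1 (0.0528), DUSP1+/+ LPS 3 (0.0532) or DUSP1-/- LPS 1 (0.0666).

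Srrm2 was higher in most arrays labelled DUSP1-/- and did not pass the LPS test. Its set (1427902_at) read 311, 206 and 188 in DUSP1+/+ controls, 282, 561 and 595 in DUSP1-/- controls, 212, 234 and 252 in DUSP1+/+ LPS arrays and 454, 545 and 483 in DUSP1-/- LPS arrays. The genotypes overlapped in controls, through DUSP1-/- control 1 at 282, and did not overlap after LPS. The genotype difference was 0.99 ± 0.29 in controls and 1.09 ± 0.29 after LPS. LPS gave 0.02 ± 0.29 in DUSP1+/+ and 0.11 ± 0.29 in DUSP1-/- mice (limma adjusted p = 0.998 and 0.869; 95% intervals -0.61 to 0.65 and -0.52 to 0.75). DUSP1-/- controls 2 and 3, the higher ones, are among the arrays with lung transcripts; without those 4 arrays the genotype difference was 0.30 in controls and 1.23 after LPS. Without DUSP1+/+ controls 2 and 3, the arrays low in Xist, the genotype difference in controls was 0.55. The part of the lung and sex-linked transcripts in this difference was not tested.

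Fam120b was the member that fell with LPS in the averaged test with the smallest p. The brighter set (1417142_at) read 201, 146 and 143 in DUSP1+/+ controls and 82, 130 and 166 in DUSP1-/- controls. After LPS it read 126, 96 and 97 in DUSP1+/+ and 61, 59 and 52 in DUSP1-/- arrays. The genotypes overlapped in controls, and after LPS every DUSP1-/- array was below every DUSP1+/+ array. The genotype difference was -0.42 ± 0.25 in controls and -0.88 ± 0.25 after LPS; the former was -0.14 without DUSP1-/- control 1, the lowest of the controls. It fell by 1.08 ± 0.25 in DUSP1-/- mice (limma adjusted p = 0.0192) and by 0.85 ± 0.18 averaged (limma adjusted p = 0.00738), with -0.61 ± 0.25 in DUSP1+/+ mice (adjusted p = 0.216).

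The call for Fam120b in DUSP1-/- mice was lost with each of the 3 scalings of arrays (adjusted p from 0.0518 to 0.0581). It was also lost without DUSP1-/- control 2 (0.0538) or 3 (0.0621), DUSP1-/- LPS 1 (0.0559) or 3 (0.0731), and without the 4 arrays with lung transcripts (0.643, value -0.48). The second set (1438427_at) read 23 to 58 over the 12 arrays, gave 0.06 ± 0.35 in DUSP1+/+ and 0.50 ± 0.35 in DUSP1-/- mice (adjusted p = 0.959 and 0.438), and had an r of -0.21 with the first. With the mean of both sets in place of the brighter, the averaged response was -0.28 (adjusted p = 0.309).

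Markers of spleen cell types fell in the same averaged test as Fam120b and, below, Baiap3. Of the B cell markers 3 of 6 fell, of the T cell markers 4 of 6, of the macrophage markers 5 of 7 and of the stroma markers 4 of 10, and none of these rose. Their median responses were -1.06, -1.08, -1.16 and -0.69. The mean log2 signal of the T cell markers was 7.49 to 9.07 in the 6 controls and 6.95 to 7.66 in the 6 LPS arrays, and that of the macrophage markers 9.40 to 10.18 and 8.43 to 9.21. That of the B cell markers was 8.84 to 9.98 and 8.27 to 9.27, and that of the stroma markers 7.44 to 8.19 and 6.98 to 7.58, so that controls and LPS arrays overlapped for each list but the macrophage markers. Their part in the falls of Fam120b and Baiap3 was not tested.

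Gfer had 2 probe sets whose genotype differences pointed in opposite directions. The brighter set (1452272_a_at) read 212, 227 and 304 in DUSP1+/+ controls, 171, 187 and 155 in DUSP1-/- controls, 328, 607 and 554 in DUSP1+/+ LPS arrays and 200, 272 and 149 in DUSP1-/- LPS arrays. The other (1426995_a_at) read 132, 79 and 121 in DUSP1+/+ controls, 162, 144 and 273 in DUSP1-/- controls, 97, 176 and 160 in DUSP1+/+ LPS arrays and 240, 325 and 186 in DUSP1-/- LPS arrays. Neither set overlapped between genotypes under either treatment, the first being lower and the second higher in arrays labelled DUSP1-/-. The differences were -0.52 ± 0.28 and -1.26 ± 0.28 for the first set, in controls and after LPS, and 0.78 ± 0.33 and 0.80 ± 0.33 for the second. Within each array, the second set over the first was 0.289 to 0.623 in the 6 DUSP1+/+ arrays and 0.770 to 1.76 in the 6 DUSP1-/- arrays, which shows that the sets changed unequally and not what either transcript did. The mean of both sets gave a genotype difference of 0.13 in controls, with the sign turned from that of the brighter one.

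Gfer did not pass the LPS tests. The brighter set gave 0.97 ± 0.28 in DUSP1+/+ mice (limma adjusted p = 0.0683), 0.24 ± 0.28 in DUSP1-/- mice (0.683) and 0.60 ± 0.20 averaged (0.0547). With all arrays shifted to 1 median the averaged value was 0.77 (adjusted p = 0.0212) and that in DUSP1+/+ mice 1.09 (adjusted p = 0.0461). The averaged test also passed with quantile normalization (limma adjusted p = 0.031), cyclic loess (0.0232) and array weights (0.022). Of 25 other settings it passed in 7, and the test in DUSP1+/+ mice passed in 4. The other set gave 0.37 ± 0.33 and 0.40 ± 0.33 (adjusted p = 0.658 and 0.537).

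**Figure D2:**
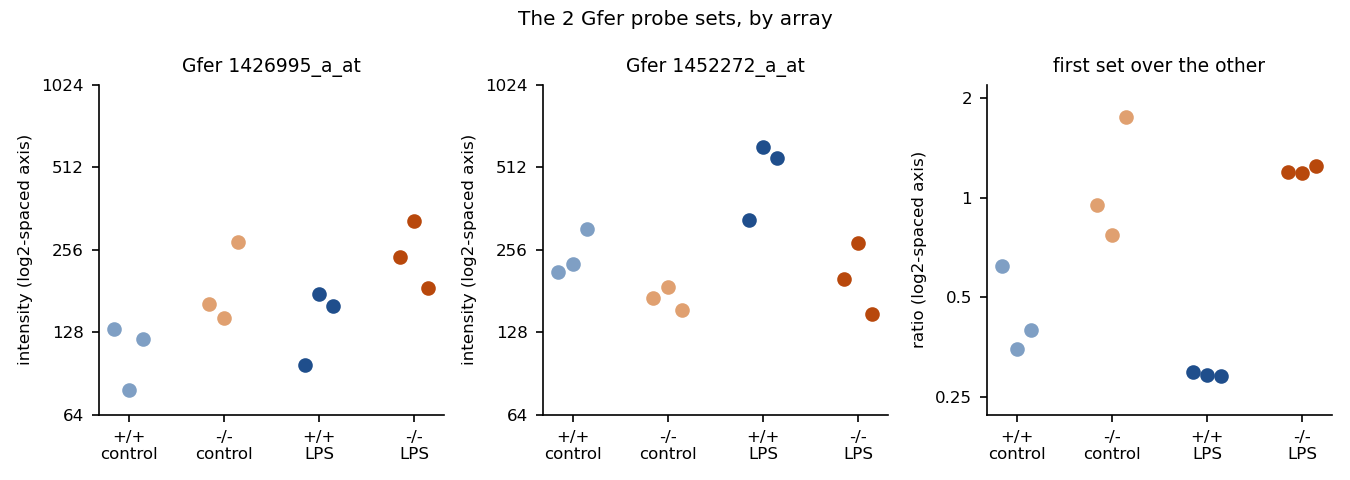
Intensity of the 2 Gfer probe sets (y axis of the left and middle plots) and the ratio of the first plotted set, 1426995_a_at, to the other (y axis of the right plot) in the 3 arrays of each group, on log2-spaced axes, with +/+ and -/- the labelled genotype. The ratio is 0.289 to 0.623 in the +/+ arrays and 0.770 to 1.76 in the -/- arrays.

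Baiap3 differed between genotypes in controls and overlapped between them after LPS. Its set (1427509_at) read 50, 32 and 45 in DUSP1+/+ controls, 23, 20 and 15 in DUSP1-/- controls, 20, 21 and 18 in DUSP1+/+ LPS arrays and 18, 20 and 16 in DUSP1-/- LPS arrays. The 3 DUSP1+/+ controls stood above all the other arrays, which read 15 to 23, and 30.8% of all values on the arrays lie under 20. The genotype difference was -1.13 ± 0.21 in controls and -0.13 ± 0.21 after LPS. Baiap3 fell with LPS by 1.08 ± 0.21 in DUSP1+/+ mice (limma adjusted p = 0.0133) and by 0.59 ± 0.15 averaged (adjusted p = 0.0196), with -0.09 ± 0.21 in DUSP1-/- mice (adjusted p = 0.867). The difference between responses was 1.00 ± 0.30 (limma adjusted p = 0.652). The call in DUSP1+/+ mice was lost without DUSP1+/+ control 1 (adjusted p = 0.0511) or DUSP1+/+ LPS 3 (0.0707), and the averaged call with arrays shifted to 1 median (0.113), without DUSP1+/+ LPS 3 (0.0542), DUSP1-/- LPS 3 (0.0522) or the 4 arrays with lung transcripts (0.121).

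Cacna1h was dim, and lower in most arrays labelled DUSP1-/- at 1 of its 2 sets. The brighter set (1422710_a_at) read 32, 24 and 33 in DUSP1+/+ controls, 26, 14 and 22 in DUSP1-/- controls, 30, 26 and 26 in DUSP1+/+ LPS arrays and 13, 19 and 15 in DUSP1-/- LPS arrays. The genotypes overlapped in controls and did not overlap after LPS, with differences of -0.55 ± 0.25 and -0.82 ± 0.25. LPS gave -0.11 ± 0.25 in DUSP1+/+ and -0.37 ± 0.25 in DUSP1-/- mice (limma adjusted p = 0.9 and 0.405). The other set (1427607_at) read 12 to 19 in all 12 arrays, and had an r of 0.21 with the first.

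Dnah8, a gene of sperm flagella, was higher in arrays labelled DUSP1-/- in controls and after LPS at 1 of its 2 sets. That set (1424936_a_at) read 58, 36 and 37 in DUSP1+/+ controls, 68, 259 and 124 in DUSP1-/- controls, 32, 33 and 35 in DUSP1+/+ LPS arrays and 46, 89 and 87 in DUSP1-/- LPS arrays. No array of one genotype overlapped the other under either treatment, and DUSP1-/- control 2 was the highest. The genotype difference was 1.61 ± 0.43 in controls and 1.09 ± 0.43 after LPS. LPS gave -0.35 ± 0.43 in DUSP1+/+ and -0.87 ± 0.43 in DUSP1-/- mice (limma adjusted p = 0.769 and 0.243); without DUSP1-/- control 1 the latter was -1.34 (adjusted p = 0.0426). The other set (1425692_a_at) read 9 to 14 in all arrays. DUSP1-/- controls 2 and 3 carried lung transcripts; without these and DUSP1-/- LPS 1 and 3 the genotype difference was 0.68 in controls and 1.42 after LPS. Without the 3 arrays with pancreas transcripts the difference in controls was 2.83. That value rests on 1 DUSP1-/- control, array 2 at 259, which is also one of those with lung transcripts. Testis markers, 6 in all and the tissue where Dnah8 is best known, had a mean log2 signal of 3.89 to 4.50 in every array.

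**Figure D3:**
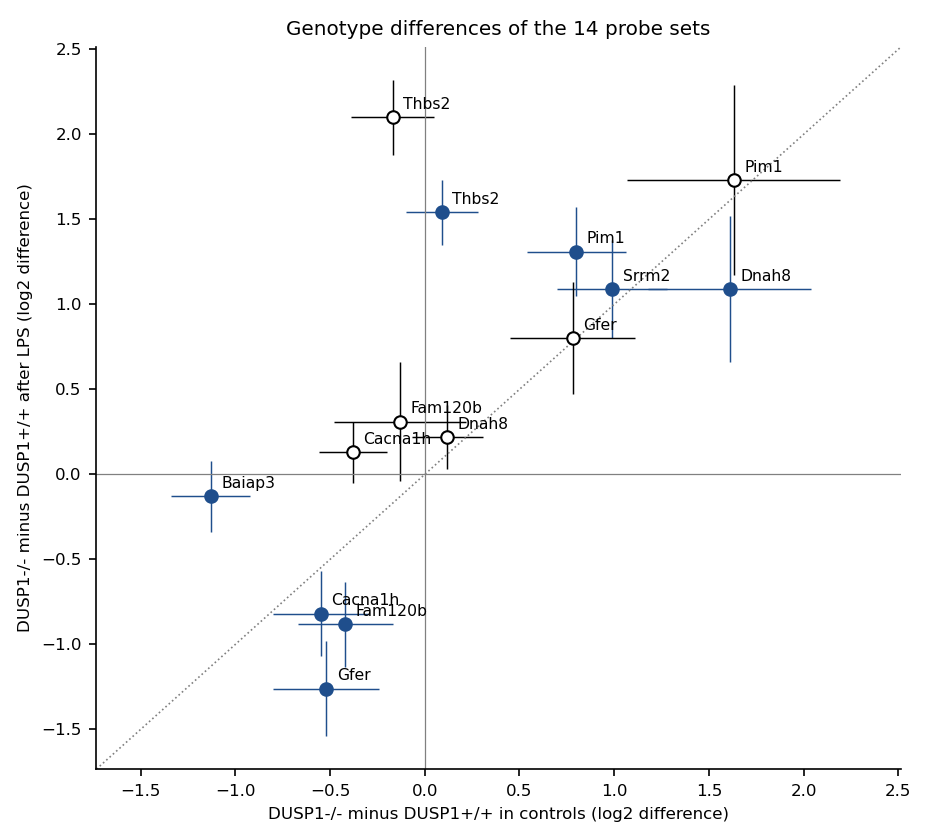
Log2 difference of arrays labelled DUSP1-/- minus DUSP1+/+ in controls (x axis) and after LPS (y axis) for the 14 probe sets, with bars the limma standard errors, filled dots the brightest set of a gene, open dots its other sets and the dotted line equal differences. Pim1, Srrm2 and Dnah8 lie to the upper right, Thbs2 lies high on the y axis near 0 on the x axis, and Baiap3 lies low on the x axis near 0 on the y axis.

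Counted over the brightest sets, the groups of 3 did not overlap in controls for 4 of 8 members (Pim1 and Dnah8 higher, Gfer and Baiap3 lower in DUSP1-/-), beside 2.49% of all genes (1.53% higher, 0.952% lower). After LPS they did not overlap for 7 of 8, 4 higher and 3 lower, beside 18.3% of all genes (8.73% higher, 9.6% lower). Those that did so with 1 direction under both treatments were Pim1 and Dnah8, higher, and Gfer, lower, beside 0.161% of all genes (0.0646% higher, 0.0968% lower). Since the genotype difference chose the members, nothing is read from these counts. By direction in the untreated mice alone, the values fall into those with a difference of 0.80 or more (Pim1, Srrm2, Dnah8), those from -1.13 to -0.42 (Baiap3, Cacna1h, Gfer, Fam120b) and Thbs2 at 0.09. Gfer falls in the second set by its brighter probe set alone, and the differences of Fam120b and Cacna1h varied with the array left out, from -0.64 to -0.14 and from -0.74 to -0.30. The first set varied as well: Pim1 went as low as 0.65 with 1 array left out. Without the 4 arrays with lung transcripts Srrm2 gave 0.30 and Dnah8 0.68.

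The LPS response is not the averaged genotype difference by which the members rank. How they were picked from the window is not stated, though. Each response within a genotype shares arrays with a genotype difference, so its calls may not be free of that choice. In DUSP1+/+ mice 1 of 8 members rose (Pim1) and 1 fell (Baiap3), beside 8.09% of all genes past the threshold (3.93% rose, 4.16% fell). In DUSP1-/- mice 2 rose (Pim1 and Thbs2) and 1 fell (Fam120b), beside 15.2% of all genes (5.54% rose, 9.71% fell). Averaged, 1 rose (Pim1) and 2 fell (Baiap3 and Fam120b), beside 22.9% (8.52% rose, 14.3% fell). For the difference between responses 0 of 8 members and 0% of all genes passed limma's adjusted threshold, where 800 genes (6.46%) had an unadjusted p under 0.05. A call in one genotype and none in the other is thus no shown difference between them. Shifting all arrays to 1 median raised the median LPS response of all probe sets by 0.12 in DUSP1+/+ and 0.22 in DUSP1-/- mice; Pim1 then kept its 3 calls.

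**Figure D4:**
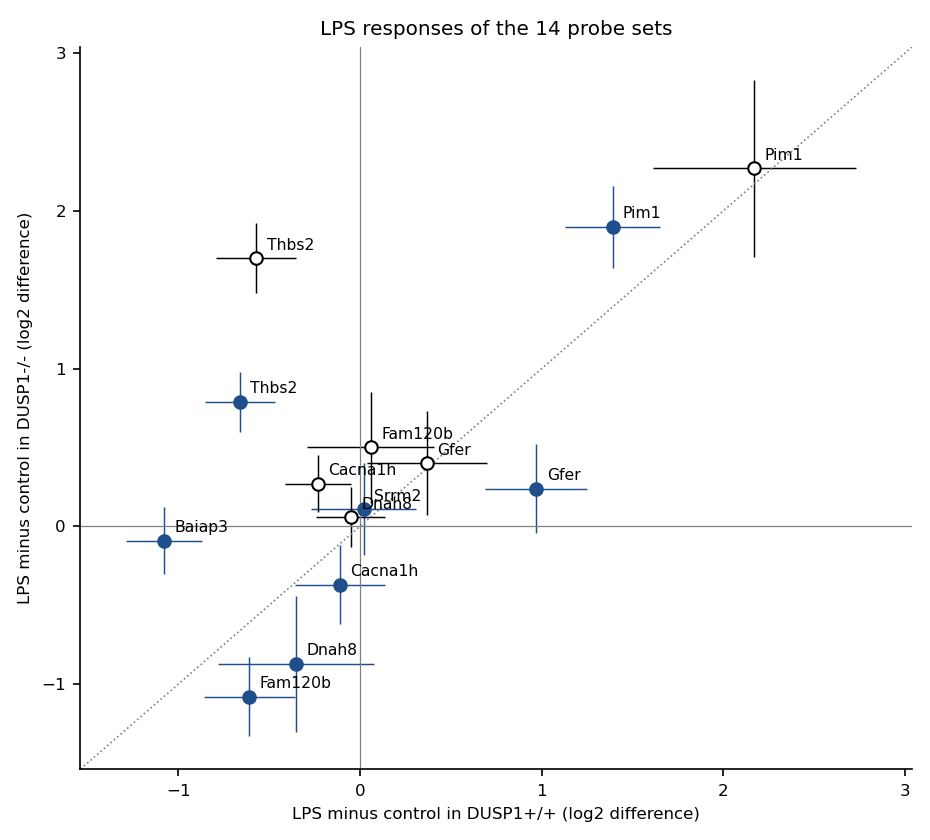
Log2 LPS response in arrays labelled DUSP1+/+ (x axis) and DUSP1-/- (y axis) for the 14 probe sets, with bars the limma standard errors, filled dots the brightest set of a gene, open dots its other sets and the dotted line equal responses. Both Pim1 sets lie near the line at the upper right, and both Thbs2 sets lie left of 0 and above 0.

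The relatives of the members were measured as context. Of 3 Pim kinases, Pim1 and Pim3 rose with LPS, Pim3 by 1.59 ± 0.30 (limma adjusted p = 0.0036), and Pim2 gave 0.02 ± 0.25 (adjusted p = 0.969). Pim3 gave 0.09 ± 0.42 and 0.13 ± 0.42 between genotypes in controls and after LPS. Of 5 thrombospondins 2 rose on average, Thbs1 by 2.40 ± 0.38 and Thbs4 by 0.97 ± 0.26 (limma adjusted p = 0.00131 and 0.0225), and Thbs2 gave 0.07. A list of 14 measured genes that are induced through JAK and STAT proteins or belong to that pathway includes Pim1 itself. Of these, 12 rose, Pim1 among them, and none fell, where 8.52% of all genes rose and 14.3% fell. Their median averaged response was 1.93, beside -0.04 over all genes. Among them Il6 rose by 6.02 ± 0.43, Socs1 by 3.80 ± 0.32 and Socs3, a feedback inhibitor, by 3.73 ± 0.33. Genotype differences after LPS were not particular to the members. The genotypes then did not overlap for 3 of 5 thrombospondins and 9 of 14 genes of the JAK and STAT list, members included, beside 18.3% of all genes. Thbs1 was higher in DUSP1-/- LPS arrays by 1.20 ± 0.53, Thbs4 by 0.59 ± 0.37, Il6 by 2.74 ± 0.61 and Socs3 by 1.15 ± 0.47. Irf1 was lower (-0.51 ± 0.35). These lists were drawn up with earlier results of these data known.

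Of 12 measured genes of the mitochondrial disulfide relay in which Gfer acts, 4 rose and 1 fell, with a median of 0.40. Chchd4, the import receptor that Gfer oxidizes, rose by 1.34 ± 0.23 (limma adjusted p = 0.00221), Timm8a1 by 1.29 ± 0.27 (0.00734) and Timm10 by 1.07 ± 0.18 (0.00189), and Aifm1 fell by 0.73 ± 0.18 (0.0174). Of 14 splicing genes of the Srrm2 list none passed the averaged test, with a median of 0.14 and Srrm1, the other scaffold of its kind, at 0.44 ± 0.22 (adjusted p = 0.209). Of 9 calcium channel pore genes 1 rose, Cacna1s by 1.29 ± 0.23 (adjusted p = 0.00248), with a median of 0.17. Of 3 Munc13-related genes and 2 Fam120 genes only Baiap3 and Fam120b passed, and of 5 axonemal dynein genes none did, with medians of -0.15, -0.36 and 0.00.

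The neighbourhood of Dusp1 was then set beside the rest of the genome. Relative to Dusp1, Thbs2 lies 11.81 Mb and Fam120b 11.07 Mb toward lower coordinates, Srrm2 2.68, Gfer 1.81, Baiap3 1.25 and Cacna1h 1.07 Mb, while Pim1 lies 2.98 and Dnah8 4.12 Mb toward higher coordinates. The 6 genes measured next to Dusp1 did not differ between genotypes in a way that parted their groups: Luc7l, Rgs11 and Axin1 below it and Ergic1, Atp6v0e and Crebrf above it gave -0.12 to 0.24 in controls. Over the whole window, which is set by position alone, the groups did not overlap in controls for 15 of 399 genes (3.76%), 4 of them members. In the rest of chromosome 17 this held for 5 of 196 genes (2.55%) and on other chromosomes for 288 of 11773 (2.45%). After LPS the shares were 21.3%, 21.4% and 18.2%. Leaving the 8 members out gives 2.81% of 391 window genes in controls and 19.9% after LPS; this lowers the window's share by construction, since it takes out genes picked for their genotype difference and the other sets keep theirs. The shares were not tested against each other.

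**Figure D5:**
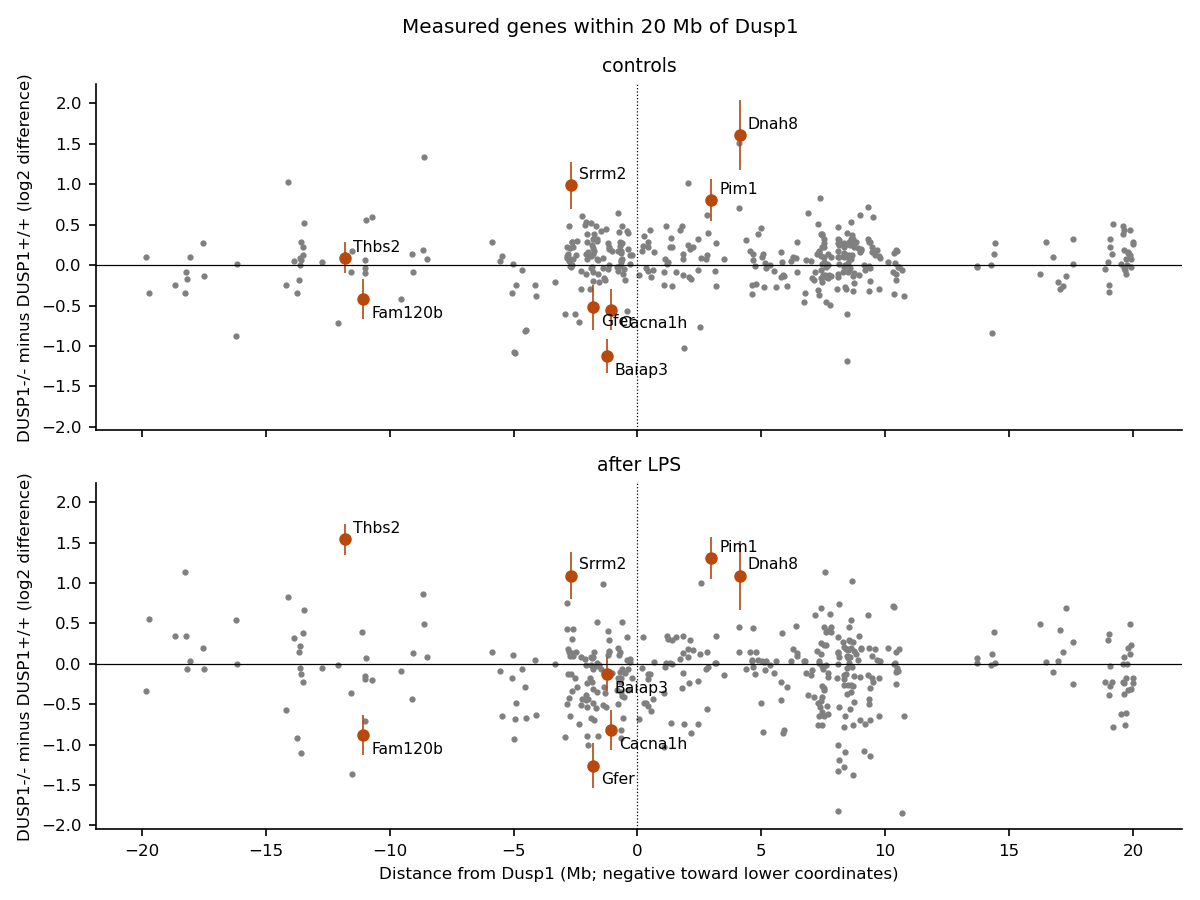
Log2 difference of arrays labelled DUSP1-/- minus DUSP1+/+ (y axis) in controls (upper plot) and after LPS (lower plot) against distance from Dusp1 in Mb (x axis) for the 399 measured genes of the window, with the 8 members as labelled dots with limma standard errors and the other genes in grey. In both plots Pim1 and Dnah8, at higher coordinates than Dusp1, lie above 0; at lower coordinates Gfer, Baiap3, Cacna1h and Fam120b lie below 0 and Srrm2 and Thbs2 above it.

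Within the window, differences of 1 direction without overlap under both treatments were found in 4 of 399 genes, all within 5 Mb of Dusp1: Pim1, Dnah8, Gfer and Rpl10a, a ribosomal protein gene. Rpl10a differed by only -0.12 in controls and -0.11 after LPS. By distance these were 4 of 163 genes at 0 to 5 Mb (2.45%) and none of 147 at 5 to 10 Mb, 43 at 10 to 15 Mb or 46 at 15 to 20 Mb; 3 of the 4 are members. The count of 4 moved with the arrays used: it was 11 without DUSP1+/+ control 1 or without DUSP1-/- control 1 and 7 without DUSP1-/- control 3, where the count over all genes went from 20 to 97, 102 and 175. It was 11 without DUSP1+/+ controls 2 and 3, 31 without the 3 arrays with pancreas transcripts and 57 without the 4 with lung transcripts, with 229, 863 and 1596 over all genes. Chromosome 17 as a whole ranked 4 of 20 chromosomes by the share without overlap in controls (3.36%, range 1.09% to 4.11%) and 2 by that after LPS. It ranked 1 of 20 by the share without overlap in 1 direction under both treatments (0.671%, range 0% to 0.671%), which rests on the same 4 genes. At the edges of the window, Dynlt1f (19.85 Mb below) and Cul9 (19.99 Mb above) gave 0.10 and 0.26 in controls, and Serac1 and Srf just beyond it -0.39 and 0.07. Whether a stretch of chromosome carried along with the targeted allele, the loss of Dusp1 itself or a difference in strain lies behind the differences in untreated mice cannot be told apart in these groups. The sex-linked and lung signals also differed between control arrays of the genotypes, and their part in these differences was not tested.

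The next genes of the window by the same p were Mrpl18, Igf2r, Mapk14 and Glo1. Mrpl18, a mitochondrial ribosome gene, ranked 76 among all genes and so ahead of Fam120b; it gave 0.06 ± 0.20 in controls and -1.10 ± 0.20 after LPS. Igf2r, a lysosomal sorting receptor, gave -0.35 ± 0.27 and -0.92 ± 0.27, and Mapk14, a MAP kinase that Dusp1 is known to act on, -0.17 ± 0.22 and -0.86 ± 0.22. Glo1, the gene for glyoxalase, lies 4.08 Mb from Dusp1 beside Dnah8, and its 3 probe sets were looked at after their values were seen. The set 1424108_at read 259, 302 and 272 in DUSP1+/+ controls, 949, 514 and 768 in DUSP1-/- controls, 130, 192 and 119 in DUSP1+/+ LPS arrays and 158, 146 and 215 in DUSP1-/- LPS arrays. All 3 Glo1 sets were higher in every DUSP1-/- control than in any DUSP1+/+ control, by 1.38 to 1.64, and by 0.24 to 0.45 after LPS. Glo1 fell with LPS in DUSP1-/- mice by 1.69 ± 0.45 to 2.30 ± 0.31 over its sets (limma adjusted p from 0.000758 to 0.0318). In DUSP1+/+ mice the same sets gave -0.95 ± 0.26, -0.62 ± 0.45 and -0.90 ± 0.31 (limma adjusted p = 0.0585, 0.547 and 0.127).

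The nearest measured genes on each side of the members were looked at after the values were seen. They lie up to 260.7 kb from the member, so unmeasured genes can lie between. Of 16 that are no members, the groups did not overlap for 2 in controls (12.5%, beside 2.49% of all genes), for 2 after LPS (12.5%, beside 18.3%) and for none in 1 direction under both (beside 0.161%). Smoc2, beside Thbs2, was lower in DUSP1-/- controls (-0.71 ± 0.27), where Thbs2 gave 0.09. Flywch2, beside Srrm2, gave 0.21 ± 0.18 in controls at intensities of 19 to 24. Tsr3, beside Baiap3, was lower (-0.53 ± 0.38) and Dll1, a Notch ligand gene beside Fam120b, higher (0.39 ± 0.27) after LPS. Elob, which adjoins Srrm2, gave -0.02 ± 0.23 and -0.12 ± 0.23, and Fgd2 and Rnf8, on either side of Pim1, gave 0.40 ± 0.52 and -0.07 ± 0.20 in controls. Beside Dnah8, 1700097N02Rik gave 0.71 ± 0.34 in controls, with overlapping genotypes, and 0.14 ± 0.34 after LPS. Glp1r, on the other side of Dnah8, gave 0.31 ± 0.18 and -0.07 ± 0.18. Glo1, described above, is not among the 16.

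Over the 12 arrays and 8099 genes above a mean intensity of 30.5, the gene most like Pim1 was Mafk (Pearson r = 0.965), followed by Manbal (0.943) and Lif (0.935). Thbs2 was most like Aff1 (0.859), Mmp12 (0.837) and Cpeb2 (0.831), Gfer most like Wdr77 (0.916), Fam120b most like Tbc1d17 (0.967), Cacna1h most like Tmem230 (0.873) and Baiap3 most like Arl3 (0.793). Srrm2 and Dnah8 were each the gene most like the other (0.836), the only pair from the window in these lists of 3. These values describe arrays that share their groups and, for Srrm2 and Dnah8, the DUSP1-/- controls 2 and 3 that also hold lung transcripts.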

How the data were processed

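Spleen RNA of 12 mice was labelled at 5 µg per array with the Affymetrix One Cycle Kit, per the labels' protocols. The deposited values are a linear intensity per probe set, made by the authors with RMA per the submitters' processing notes; versions are not given in the sources used here. All values are whole numbers from 6 to 15228, and array medians run from 47 to 63. RMA summarises several probes into 1 value, so probes that fit an allele or isoform poorly can shift it.

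Intensities were log2-transformed. Of 22690 probe sets, 64 controls were left out. The platform's gene table names 1 gene for 20380 of the rest, several for 691 and none for 1555, and a gene is represented by its brightest set that names it alone (sets ending in _x_at only where no other exists), which gave 12393 genes. A model with 4 group means was fitted with limma 3.58.1 in R 4.3.3 (lmFit, eBayes; 8 residual and 2.722 prior degrees of freedom), with Benjamini-Hochberg adjustment over 22626 probe sets, two-sided. It was tested on simulated data. Groups of 3 arrays do not overlap where every array of one lies above every array of the other. Distances from Dusp1 and names come from a RefSeq gene table (GRCm38.p6), which gave a position to 12369 genes, and promoter sequences from RefSeq on the same build. Precision is limited by how far a set lies above background and by 3 arrays a group.

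The members, gene lists, alternatives and rules were chosen with earlier results of these data known. Genes named are the members with all their probe sets, Dusp1, the 3 measured genes nearest to Dusp1 on each side, the 5 largest LPS rises and falls in the window, the 4 window genes that follow the members by p, the 3 genes most like each member (highest Pearson r, of which the first is given for some), up to 4 genes of a list by size of the averaged LPS response, and the window's edge genes; any other, such as Sftpc, Xist, Cd79a, Cd3d and Rpl10a, was chosen after its values were seen. Markers of other tissues are given as means per array. Alternatives were array scaling, low values, variance model, array weights, the replicate block, leaving out arrays and the mean of probe sets.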

Additional observations from a re-analysis of the deposited data

Results flagged for a closer look

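At 3 probe sets every LPS array labelled DUSP1-/- lay above the mean of its own controls and every LPS array labelled DUSP1+/+ below its own. For Thbs2 1422571_at the LPS response was higher in DUSP1-/- mice by 2.27 ± 0.30 (log2, limma standard error, 3 mice a group; adjusted p = 0.164). For Thbs2 1450663_at it was higher by 1.45 ± 0.28 (limma adjusted p = 0.265). For Cacna1h 1427607_at, which read 12 to 19 in all arrays, it was higher by 0.51 ± 0.25 (limma adjusted p = 0.956). None of these 3 differences passed the adjusted threshold. Among the alternatives, that of Thbs2 1422571_at passed in 1 of 24, without the 3 arrays with pancreas transcripts, where it was 2.39. This setting leaves 1 DUSP1-/- control, array 2, so nothing is read from the pass.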

How the results depend on the processing

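Over the 1360 values of single tests under alternatives, 86 changed sign, all of them past the threshold in neither setting. Calls were lost in 56 of these values and gained in 18; losses when 1 array was left out numbered 29. Pim1 1435458_at kept its averaged rise in 25 of 25 settings, with adjusted p from 9.84e-05 to 0.0211. Members past the threshold numbered 2 for the LPS response in DUSP1+/+ mice, beside 1002 of all genes. These became 4 and 1890 with array weights, and 0 to 3 and 389 to 1290 with 1 array left out. Among probe sets at or above the 40th percentile the members numbered 1. In DUSP1-/- mice the members numbered 3 beside 1889 of all genes, which became 1 to 3 beside 988 to 2018 with 1 array left out. For the averaged response they numbered 3 beside 2833, which became 2 to 4 beside 2086 to 3072. Members without overlap in controls numbered 4, which became 8 without the 3 arrays with pancreas transcripts. Those without overlap in 1 direction under both treatments numbered 3, which became 5 without DUSP1+/+ controls 2 and 3, 7 without the arrays with pancreas transcripts and 3 to 5 with 1 array left out. Window genes without overlap in controls numbered 15, which became 24 with quantile normalization, 26 with cyclic loess, 162 without DUSP1+/+ controls 2 and 3, 243 without the arrays with pancreas transcripts, 185 without those with lung transcripts and 15 to 72 with 1 array left out. Over all genes the same count was 308, and in the same order 479, 585, 4390, 8104, 5444 and 308 to 1675; groups of fewer arrays part more often by construction. The Gfer difference in controls turned to 0.13 with the mean of its sets, since the sets differ in sign.

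Over all genes, LPS calls ran from 389 to 1890 in DUSP1+/+ mice (1002 as reported), from 281 to 2504 in DUSP1-/- mice (1889), from 1294 to 3720 averaged (2833) and from 0 to 102 for the difference (0). Replicate numbers did not pair the arrays: deviations of same-numbered arrays had correlations of -0.61 to 0.63 (median 0.05) and others of -0.62 to 0.61 (median -0.02). With the replicate block the members' counts were unchanged, and among single sets only the rise of Pim1 1423006_at in DUSP1+/+ mice was lost (2.17, adjusted p = 0.0627). A test past the threshold in neither setting was compared by size only. Dim sets (Baiap3, Cacna1h) lie near the floor of the arrays, which limits what can be seen of a fall. The same limit holds for Thbs2 in DUSP1+/+ LPS arrays, where its sets read 21 to 25 and 17 to 29. It also bears on the difference between the Thbs2 responses.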

Other observations

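The window also holds genes of the LPS response and of the major histocompatibility complex that are no members. Among its 399 genes 36 rose and 61 fell in the averaged response (24.3%, beside 22.9% of all genes). Its largest rises were Fpr2, a formyl peptide receptor (3.11 ± 0.31 log2, limma adjusted p = 9.03e-05), Gpr31b (2.83 ± 0.20), Ier3 (2.82 ± 0.35), Cdkn1a, a cell cycle inhibitor (2.81 ± 0.21), and Ubd, a ubiquitin-like modifier (2.67 ± 0.38). Its largest falls were Hspa1b, a heat shock protein (-2.20 ± 0.60), Mapk14 (-2.17 ± 0.15), Tnxb (-1.99 ± 0.30), Tcf19 (-1.81 ± 0.24) and Lst1 (-1.76 ± 0.27). Of 6 genes around Tnf, Tnf rose by 1.52 ± 0.20 (limma adjusted p = 0.000534) and Ltb, Aif1 and Lst1 fell. None of 7 measured class II genes and none of 5 class I genes passed, with medians of -0.24 and 0.15.

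Cdkn1a read 549, 647 and 587 in DUSP1+/+ LPS arrays and 1013, 1848 and 894 in those labelled DUSP1-/-, with no overlap, and gave 0.09 ± 0.29 between genotypes in controls and 1.00 ± 0.29 after LPS. Ubd ran the other way after LPS, at 1961, 798 and 1254 against 318, 246 and 537. For both the difference between responses was not past the threshold (limma adjusted p = 0.918 and 0.904).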
